A study of Mus musculus with 60 samples.

Results

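Tubulin is the protein that microtubules are built from, and its genes are followed here through the prefrontal cortex of young mice that received lithium or fluoxetine. The 10 genes were 3 for alpha tubulin (Tuba1a, Tuba1b and Tuba4a), 6 for beta tubulin (Tubb2a, Tubb2b, Tubb3, Tubb4a, Tubb4b and Tubb5) and Tubg1 for gamma tubulin, out of 18088 genes in the deposited table. They were taken by name, as the main tubulin genes of the brain, after Tuba4a had been seen higher in the lithium libraries of these same data. Their differences between lithium and vehicle are therefore a description and carry no test, and Tuba4a is tested only where fluoxetine libraries alone enter. All 10 passed the filter on low values, as did 17807 genes of the table.

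The prefrontal cortex of 60 C57BL/6J mice was taken on postnatal day 25 for RNA sequencing, and the mice form 12 groups of 5. Mice were wild type (WT) or Het, which carried Chd8 +/N2373K, a mutant allele of a chromatin remodeling gene, beside the normal one, and both sexes were included. Mothers were given vehicle, fluoxetine or lithium, and pups took the drug in through the milk from postnatal day 3 to 24. Fluoxetine is a serotonin reuptake inhibitor used against depression, and lithium is a mood stabilizer that inhibits glycogen synthase kinase 3 and inositol monophosphatase. Which pups were littermates is not given here, so pups of a treatment may share a mother, and a p-value measures the spread between the samples and nothing more.

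Microtubules are hollow tubes of alpha and beta tubulin pairs that grow from rings of gamma tubulin. In neurons they fill axons and dendrites, serve as tracks for motor proteins and are used for migration and outgrowth. The amount of tubulin is held in check in mammalian cells: where free tubulin is in excess, the protein TTC5 binds the first residues of new alpha and beta chains on the ribosome, and their mRNA is degraded with the help of SCAPER and the CCR4-NOT complex. Gamma tubulin genes are not known as targets of that loop.

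The coding starts are shown because these first residues are what TTC5 reads. Each line holds the first 30 bases from the start codon, 5′ to 3′ on the coding strand, from the GENCODE M21 transcripts of GRCm38, with the first 12 bases (4 codons) in capitals.
Tuba1a: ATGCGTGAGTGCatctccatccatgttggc
Tuba1b: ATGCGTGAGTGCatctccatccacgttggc
Tuba4a: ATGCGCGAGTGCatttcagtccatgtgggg
Tubb2a: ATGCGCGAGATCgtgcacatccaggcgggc
Tubb2b: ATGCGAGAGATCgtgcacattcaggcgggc
Tubb3: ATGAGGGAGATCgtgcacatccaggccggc
Tubb4a: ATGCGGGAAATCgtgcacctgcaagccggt
Tubb4b: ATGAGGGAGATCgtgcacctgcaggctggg
Tubb5: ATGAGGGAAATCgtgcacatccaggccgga
Tubg1: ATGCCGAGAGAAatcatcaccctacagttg
The 9 alpha and beta genes began with codons for the start that TTC5 recognizes, in an alpha and a beta version, and Tubg1 did not. Among 15180 genes of the table with an annotated coding start, 14 had it. Beside the 9 these were the tubulin genes Tuba1c, Tuba8 and Tubb6, the predicted gene Gm49450, and Ing1, a chromatin reader that is no tubulin. Of the annotated transcripts whose coding sequence begins with ATG, 1 of 4 held this start for Tuba4a and 1 of 2 for Tubb5.

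On GRCm38 the alpha genes lay on chromosome 15 (Tuba1a, 98949837 to 98953703, and Tuba1b, 98931425 to 98934565) and on chromosome 1 (Tuba4a, 75214228 to 75219865), all on the minus strand. Tubb2a (34074274 to 34078007) and Tubb2b (34126748 to 34130466) were neighbors on the minus strand of chromosome 13. Tubb4a (57080066 to 57087782) and Tubb5 (35833921 to 35838306) were on the minus strand of chromosome 17, Tubb4b on that of chromosome 2 (25222160 to 25224702), Tubb3 on the plus strand of chromosome 8 (123411424 to 123422015) and Tubg1 on that of chromosome 11 (101119938 to 101126419). All are annotated as protein coding, and values are given per gene.

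Sequence is shared unevenly among these genes, which limits how far reads can be assigned to one of them. Of the 31-base words in their transcripts, 77.0% of those of Tuba1a and 75.4% of those of Tuba1b also occur in another gene, most often in Tuba1c (54.7% and 64.5%), and more than 1 gene can hold the same word. Tuba1a shared 53.4% with Tuba1b. For Tubb2a the share was 56.4% and for Tubb2b 45.9%, mostly with each other, and for Tubb4b it was 64.6%, mostly with its pseudogene Tubb4b-ps1. The levels of these 5 genes are therefore uncertain, since Salmon, a quantifier in the submitters' processing notes, divides shared reads between copies by estimated abundance, and the error of that division is not known here. Tubg1 shared 24.2%, mostly with Tubg2. Tuba4a (3.01%), Tubb3 (3.21%), Tubb4a (1.87%) and Tubb5 (3.94%) share little with any other gene.

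Promoters are shown for Tuba4a, the gene the others were chosen after, and for Tubb4b, the beta gene whose levels followed it most closely over the 60 libraries. Both are 300 bases from RefSeq (GRCm38.p6), from 250 before to 50 after the gene's start in RefSeq, 5′ to 3′ on the gene's minus strand, and capitals mark matches to the motifs searched. For Tuba4a that start is not the end given above: the 300 bases lie within the gene's span of 75214228 to 75219865.
Tuba4a promoter, chr1:75219245-75219544: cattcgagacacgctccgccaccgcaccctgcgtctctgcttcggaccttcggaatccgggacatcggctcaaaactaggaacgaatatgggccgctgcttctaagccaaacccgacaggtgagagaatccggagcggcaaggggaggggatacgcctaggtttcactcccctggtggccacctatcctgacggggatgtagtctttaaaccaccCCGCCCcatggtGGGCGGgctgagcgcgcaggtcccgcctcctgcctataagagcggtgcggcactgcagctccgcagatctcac
Tubb4b promoter, chr2:25224653-25224952: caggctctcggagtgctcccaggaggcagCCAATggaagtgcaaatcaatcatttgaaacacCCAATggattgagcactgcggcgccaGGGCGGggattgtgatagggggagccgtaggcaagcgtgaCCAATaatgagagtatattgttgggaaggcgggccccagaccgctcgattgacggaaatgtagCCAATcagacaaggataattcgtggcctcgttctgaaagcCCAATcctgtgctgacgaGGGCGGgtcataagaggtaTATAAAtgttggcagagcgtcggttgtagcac
Promoters of 8 of the 10 genes were matched. The letters GGGCGG (GC box) were found on either strand in 7 of these 8 and in 35.9% of 27025 promoters of the same length. CCAAT was found in 4 of 8 (37.9% of all), TATAAA in 2 (14.2%), CACGTG in 1 (7.24%) and TGACGTCA in 1 (1.88%). CTTTGAT, the core that TCF/LEF factors bind, was found in none of the 8 (3.72% of all). The Tuba4a promoter holds the GC box on both strands, close to each other, and the Tubb4b promoter holds several CCAAT letters. None of the motifs searched contains another.

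Depth ran from 24.05 to 31.65 M reads per library, and values are normalized counts, reads divided by a size factor for each library. Chd8 stood at 3094 ± 91.7 in WT and 2671 ± 134 in Het mice (SD, n = 30) and differed by −0.23 on the log2 scale under vehicle (limma, adjusted p = 6.67e-06). The 8 excitatory neuron markers of cortex summed to between 115229 and 205753 normalized counts in every library. The 14 measured markers of the olfactory bulb, a neighboring region rich in young neurons, ranged from 3293 to 43412 in sum, so the libraries were not alike in these markers. The 9 markers of striatal projection neurons ranged from 5541 to 28820 and the 6 of choroid plexus from 79.5 to 15356. Whether the dissected tissue differed between libraries was not tested. Levels in whole tissue cannot tell more cells of a type from more RNA per cell.

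Per kilobase of transcript, alpha tubulin was led by Tuba1a and beta tubulin by Tubb2a. Levels over 60 libraries, in normalized counts per kb of mean coding transcript, were 22392 ± 2119 (SD) for Tuba1a, the main alpha tubulin of young neurons, and 13012 ± 1268 for Tubb2a, a major beta tubulin of brain. Tuba4a followed at 11838 ± 1859, an alpha tubulin encoded without the final tyrosine that most alpha chains carry. Tuba1b, found in most cell types, stood at 10050 ± 805. The widely expressed Tubb5 stood at 9224 ± 1023, the neuronal Tubb3 at 8855 ± 1116 and Tubb4a, a brain isotype also used by oligodendrocytes, at 8459 ± 942. Lower were Tubb4b (5561 ± 659), an isotype shared with cilia, Tubb2b (2046 ± 443), an isotype of migrating and young neurons, and Tubg1 (560 ± 38.0), the nucleating gamma tubulin.

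Between libraries the order was firm at its ends and loose in its middle. Library counts do not show an error in dividing the shared reads of Tuba1a, Tubb2a, Tubb4b or Tubb2b. Such an error could be alike in all libraries. Tuba1a was above Tubb2a, Tubb4b above Tubb2b, and Tubb2b above Tubg1 in 60 of 60 libraries with no overlap of ranges. Tubb2a was above Tuba4a in 51, Tubb5 above Tubb3 in 49 and Tubb3 above Tubb4a in 44, and the ranges of each of these pairs overlap. The places of Tuba4a, Tubb5 and Tubb3 rest on the length used. For Tuba4a, with 7 annotated coding transcripts, some short, its mean is 1.22 kb, and with the longest one (2.84 kb) its level was 5067, below Tubb4b. With the longest transcript Tubb5 was at 5939 and Tubb3 at 6267, and with merged exons they were at 4729 and 6267, so Tubb5 then stands below Tubb3 and both below Tubb4a (8459). Tuba4a made up 26.6% of the alpha level by mean length, 13.5% by the longest transcript and 10.9% by merged exons.

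With lithium, 9 of the 10 genes had higher means than with vehicle in both genotypes and both sexes, and Tubb2b did in all but Het males. Tuba4a stood highest above vehicle in all 4 settings. In WT males, Tuba4a was at 13042, 12945, 13838, 13984 and 12612 normalized counts in the 5 vehicle libraries. It was at 16415, 15422, 15658, 16520.2 and 16908 in the 5 lithium libraries of WT males. All 5 lie above the highest vehicle library, and the difference was 0.29 ± 0.08 (log2 ± SE). WT vehicle females had 12359.9, 11988, 13354, 11654 and 11936 normalized counts of Tuba4a, and WT lithium females 16805, 16514, 13059.9, 17246 and 15593. In females the lithium library at 13060 falls below the highest vehicle library, the other 4 are above, and the difference was 0.36 ± 0.08.

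Het mice had higher Tuba4a with lithium in both sexes as well. Het vehicle males had 10260.0, 12696, 15076, 11287 and 13426 normalized counts of Tuba4a, the widest spread of any vehicle group. Het lithium males had 19088, 15573, 18476, 18294 and 18837, none of them within the vehicle range, and the log2 difference was 0.53 ± 0.08. Het vehicle females were close together at 13424, 13335, 13642, 14363 and 13521. Het lithium females had 18432, 19161, 16541, 14910.3 and 18402, again all above vehicle, with a log2 difference of 0.35 ± 0.08. Averaged over sexes the log2 difference of Tuba4a was 0.33 ± 0.06 in WT and 0.44 ± 0.06 in Het mice. Over all 20 libraries a treatment it was at 12937 ± 1126 with vehicle and 16893 ± 1612 with lithium (SD, n = 20).

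**Figure D1:**
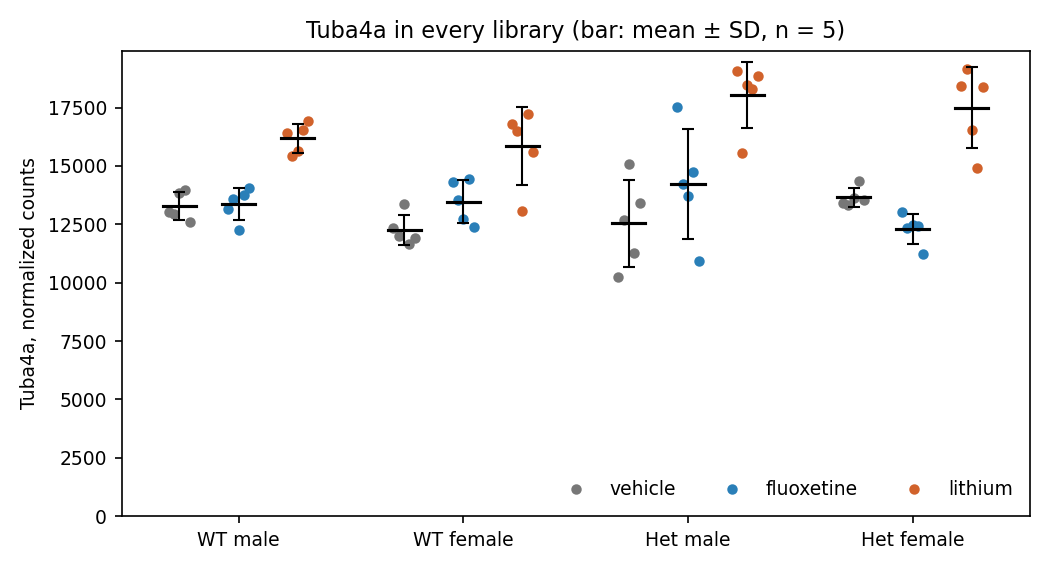
Tuba4a in normalized counts (vertical axis, from 0) in each of the 60 libraries, grouped by genotype and sex and colored by treatment. Points are libraries and black bars are group means ± SD (n = 5). The 20 lithium libraries lie between 13060 and 19161 and the 20 vehicle libraries between 10260 and 15076.

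The neuronal Tubb3 came next over both sexes of each genotype. Tubb3 stood at 10891, 11193, 11581, 11663 and 9596 normalized counts in WT vehicle males and at 12500.4, 12209.6, 12209, 13088 and 12204 in WT lithium males. In WT females it was 10043, 10232, 11053, 11228 and 10602 with vehicle and 12760.1, 13393, 12288, 14147 and 12341 with lithium. The lithium and vehicle libraries of WT mice did not overlap in either sex, with log2 differences of 0.18 ± 0.07 in males and 0.29 ± 0.07 in females. Het vehicle males had 11453, 12096, 12933, 10871 and 11025 and Het lithium males 15599, 12817, 14122, 13933 and 13034. Het vehicle females had 10303, 11667, 10008, 11248 and 11842 and Het lithium females 15086, 13193, 14928, 12094 and 14106. In Het males 1 lithium library lies within the vehicle range, in Het females none does, and the log2 differences were 0.25 ± 0.07 and 0.33 ± 0.07.

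Tubb5, the beta tubulin of most cell types, had a similar pattern. It ranged from 14087 to 15811 normalized counts in 10 WT vehicle libraries and from 16042 to 17988 in 10 WT lithium libraries, with no overlap. In Het mice it ranged from 13718 to 18045 with vehicle and from 16203 to 20650.5 with lithium, and the vehicle male at 18045 is the library that reaches into the lithium range. The log2 differences of Tubb5 were 0.20 ± 0.05 in WT and 0.26 ± 0.05 in Het mice over both sexes.

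Of the 4 remaining beta genes, 3 were higher with lithium on average in both genotypes and Tubb2b was not. Tubb4b stood at 8508 ± 690.1 normalized counts with vehicle and 9928 ± 766 with lithium (SD, n = 20), a log2 difference of 0.19 ± 0.05 in WT and 0.26 ± 0.05 in Het mice. Tubb4a stood at 17777 ± 1867 and 20624 ± 1588, with 0.15 ± 0.06 in WT and 0.28 ± 0.06 in Het. Tubb2a stood at 20201 ± 1346 and 22759.7 ± 1776, with 0.13 ± 0.05 and 0.21 ± 0.05. For each of these the vehicle and lithium ranges overlap over 20 libraries. Tubb2b is the exception in direction, at 0.16 ± 0.14 in WT and −0.12 ± 0.14 in Het mice, both smaller than 2 standard errors.

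Of the other alpha genes, Tuba1b was at 16938 ± 1038 normalized counts with vehicle and 18776 ± 1133 with lithium (SD, n = 20). Its log2 differences were 0.12 ± 0.04 in WT and 0.18 ± 0.04 in Het mice. Tuba1a was at 39766 ± 2975 and 43323 ± 3382, with 0.08 ± 0.05 and 0.16 ± 0.05. Tubg1 was at 979.7 ± 48.4 and 1058 ± 70.1, with 0.08 ± 0.04 and 0.14 ± 0.04. Tuba1a and Tubg1 thus had the smallest lithium differences among the genes whose means were higher in every setting. The share of Tuba4a in the alpha level, by mean transcript length, was 25.1 ± 1.81% with vehicle, 26.3 ± 2.12% with fluoxetine and 28.5 ± 1.62% with lithium (SD, n = 20), while that of Tuba1a was 52.0 ± 2.15%, 50.5 ± 2.52% and 49.3 ± 1.78%.

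**Figure D2:**
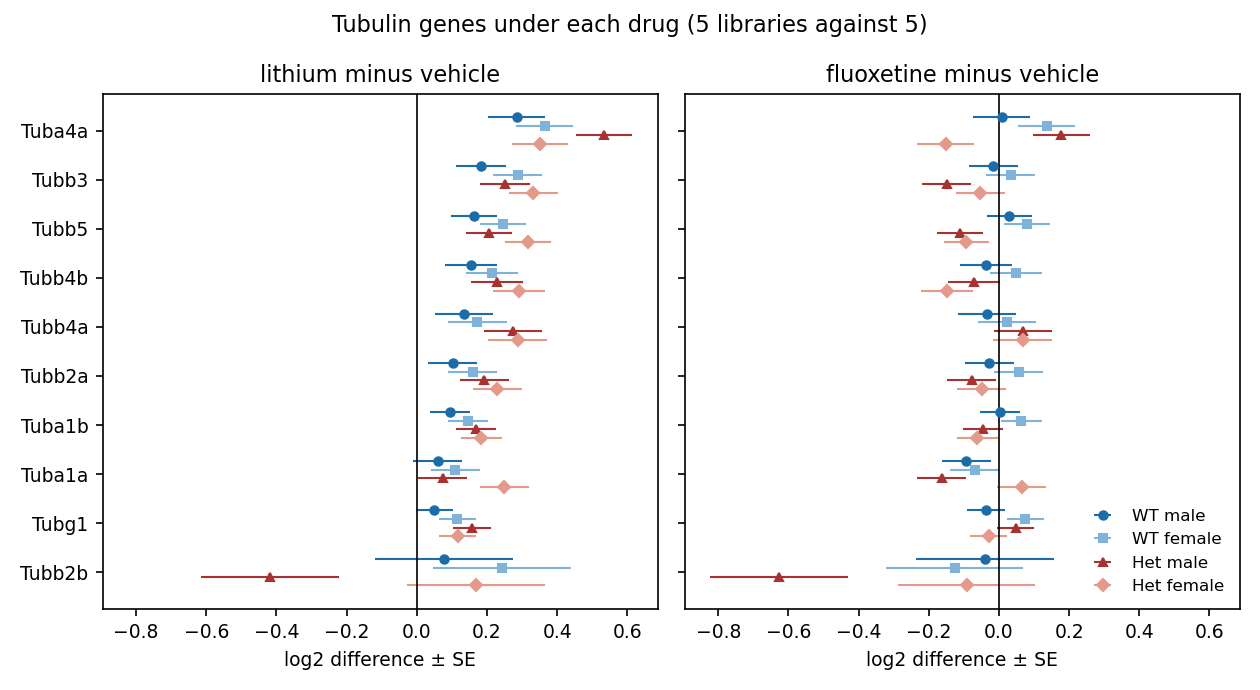
Log2 difference from vehicle (horizontal axis, ± SE, 5 libraries against 5) of the 10 genes (vertical axis) for lithium, left, and fluoxetine, right, in each genotype and sex. With lithium the Tuba4a points run from 0.29 to 0.53 and the Tubb2b point of Het males is at −0.42, the only lithium value below 0; with fluoxetine the points lie on both sides of 0.

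The median lithium difference of the 10 genes was 0.12 and 0.19 in males and females of WT, and 0.20 and 0.27 in males and females of Het mice, beside medians between −0.0042 and −0.0022 over all 17807 genes. In WT males 3 of the 10 genes (Tuba4a, Tubb3 and Tubb5) had all lithium libraries above all vehicle libraries, which held for 1.86% of all genes. In WT females it was 4 (Tuba1a, Tuba1b, Tubb3 and Tubb5; 2.44% of all genes), in Het males 1 (Tuba4a; 2.45%) and in Het females 3 (Tuba4a, Tubb3 and Tubb5; 1.27%). The genes were chosen after that contrast, so nothing is read from these counts. Under quantile normalization the median over both sexes was 0.16 in WT and 0.21 in Het mice, and after rescaling to the same total 0.16 and 0.23.

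Single libraries followed the group means. A lithium library had 8 to 10 of the 10 genes above the mean of vehicle mice of its genotype and sex, and 11 of 20 lithium libraries had all 10. Fluoxetine libraries had 0 to 10 with a median of 4. Summed over the 10 genes, tubulin took 0.506 ± 0.0346% of all normalized counts with vehicle, 0.488 ± 0.0348% with fluoxetine and 0.578 ± 0.0389% with lithium (SD, n = 20). Without Tuba4a the sums were 0.462 ± 0.0331%, 0.443 ± 0.0330% and 0.520 ± 0.0351%. The lithium sums range from 0.528% to 0.653% and the vehicle sums from 0.449% to 0.607%, so the ranges overlap through the highest vehicle libraries.

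**Figure D3:**
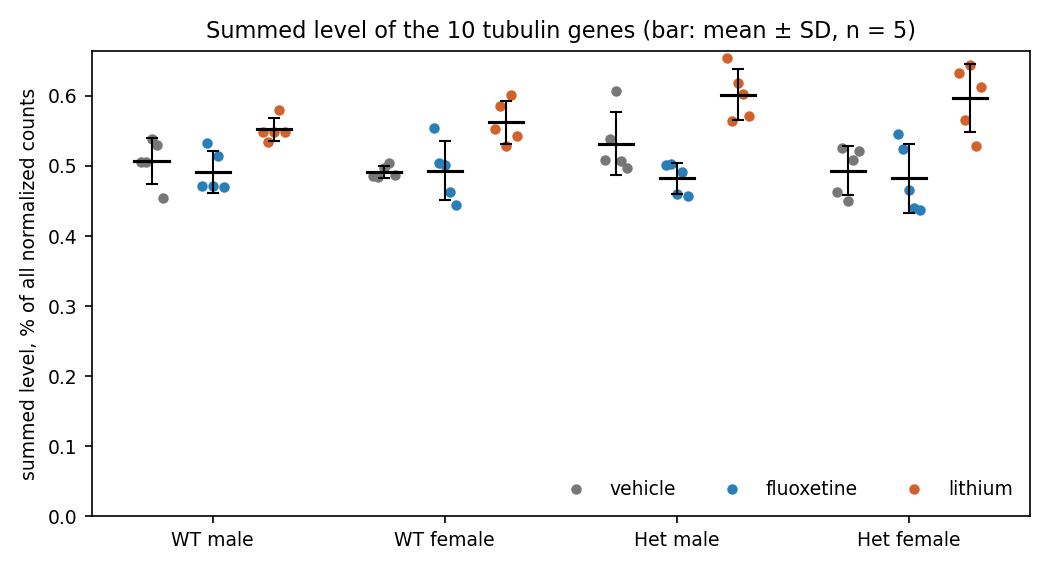
Summed level of the 10 genes in percent of all normalized counts (vertical axis, from 0) in each of the 60 libraries, by genotype, sex and treatment; black bars are means ± SD (n = 5). Lithium libraries run from 0.528% to 0.653%, vehicle libraries from 0.449% to 0.607% and fluoxetine libraries from 0.438% to 0.554%.

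Lithium differences were larger in Het than in WT mice for 9 of the 10 genes. The lithium difference was larger in Het than in WT mice by 0.12 ± 0.08 for Tuba4a and 0.13 ± 0.08 for Tubb4a (log2 ± SE, both sexes), and by 0.05 to 0.08 for 7 others. Tubb2b was at −0.29 ± 0.20. Each of these is smaller than 2 standard errors, and no test was made of them. Among lithium mice Tuba4a stood at 17771 ± 1525 normalized counts in Het and 16014 ± 1202 in WT mice (SD, n = 10), with ranges that overlap.

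Markers of other cell types were set beside these lithium values. The summed 14 oligodendrocyte and myelin markers ranged from 35368 to 202814 normalized counts in lithium and from 35938 to 233438 in vehicle libraries. The 6 markers of immature neurons other than tubulins ranged from 16524 to 25753 with lithium and from 14689.5 to 28673 with vehicle. In Het mice the 14 olfactory bulb markers had a median log2 difference of −0.60 with lithium, with none called, and their summed median was 17124 in Het vehicle males against 6714 in Het lithium males. Without the 16 libraries highest in those markers the median lithium difference of the 10 genes in Het males was 0.09, with 2 vehicle libraries left, and it was 0.11 in WT males, 0.22 in WT females and 0.33 in Het females. With scores of the oligodendrocyte and olfactory bulb lists as covariates the medians were 0.13 and 0.20 in males and females of WT, and 0.20 and 0.27 in males and females of Het mice.

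Of 7 markers of interneurons, Pvalb and Lhx6 were called with lithium. The interneuron score is the mean log2 deviation of the 7 markers from their means over all libraries. It ran from 0.018 to 0.163 in 10 WT lithium libraries and from −0.177 to 0.0064 in 10 WT vehicle libraries, with no overlap. In Het mice it ran from −0.218 to 0.370 with lithium and from −0.193 to 0.0361 with vehicle, which overlap. Pvalb, a calcium-binding protein of fast-spiking interneurons, was higher in WT (0.54 ± 0.12, limma, adjusted p = 0.00884) and Het mice (0.74 ± 0.12, adjusted p = 9.3e-05), and Lhx6, an interneuron transcription factor, in Het mice (0.33 ± 0.09, adjusted p = 0.0198). The other 5 markers were called in neither genotype, and 2.97% of all genes were called in WT and 9.14% in Het mice. As sums of normalized counts the 7 markers overlap, at 21152 to 28274 with lithium and 18775 to 26158 with vehicle in WT mice.

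Markers of astrocytes, microglia, vessels and meninges had lower medians with lithium in Het mice, and those of oligodendrocytes did not. The median oligodendrocyte and myelin score in Het mice was 0.052 with lithium and −0.095 with vehicle, with ranges that overlap. The median scores there were −0.075 against 0.085 with vehicle for 7 astrocyte markers, −0.089 against 0.104 for 7 microglia markers, −0.047 against 0.144 for 6 endothelial markers and −0.183 against 0.238 for 6 markers of the leptomeninges, and the ranges overlap in each. Slc1a3, P2ry12, Tek and Ogn were among the markers called lower (limma, adjusted p from 0.00365 to 0.0472), beside 9.14% of all genes called in either direction. In WT mice none of the 26 was called with lithium, beside 2.97% of all genes. An unadjusted p under 0.05 (limma) was found for 3 of the 26 and for 3148 of all 17807 genes. The part of the interneuron, glial, vascular and meningeal markers in the tubulin values was not tested.

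Fluoxetine was the other drug, and its comparison uses the same vehicle libraries as the lithium one. Of the 9 genes other than Tuba4a, none was called in WT males, WT females or Het females (limma, adjusted p from 0.173 to 0.989, 0 at an unadjusted p under 0.05), where 1.34%, 2.5% and 15.1% of all genes were. In Het males 1 was called, Tubb2b, lower by 0.63 ± 0.20 (log2 ± SE, adjusted p = 0.0170), where 22.7% of all genes were called. Over both sexes of Het mice the same gene was lower by 0.36 ± 0.14 (adjusted p = 0.0401), and 32.9% of all genes were called. Over both sexes of WT mice none of the 9 was (8.2% of all genes, smallest adjusted p = 0.322). A share of 1 in 9 is below the share of all genes in Het mice.

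Tubb2b is an isotype of young and migrating neurons, and its spread was wide. Het vehicle males had 6167, 5686, 5753, 5495 and 4191 normalized counts of Tubb2b, all but 1 of them above every other vehicle library. Het fluoxetine males had 3744, 4524, 2349.5, 3450.2 and 3858, 4 of them below the lowest vehicle male. Het females had 2869.9, 4164, 4029, 5053 and 4800.1 with vehicle and 5319, 4387, 3338, 3366 and 3239.8 with fluoxetine, which overlap, and their difference was −0.09 ± 0.20 (adjusted p = 0.797). WT vehicle males lay close together at 4112, 4489.7, 4201, 4244 and 4429, and WT fluoxetine males had 4621, 4449.5, 4789, 4565 and 2819.8. In WT females Tubb2b stood at 4696, 3978, 4110.3, 4956 and 5027 with vehicle and 5312, 5189, 4924, 2466 and 3689 with fluoxetine.

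Within groups Tubb2b varied by an SD of 0.32 on the log2 scale, against 0.08 to 0.13 for the other 9 genes. Olfactory bulb markers also had a lower median in Het males with fluoxetine. Their sum ranged from 5478 to 43412 (median 17124) in vehicle and from 3293 to 19936 (median 4509) in fluoxetine libraries. The 6 non-tubulin markers of immature neurons summed to 17787 to 28673 in vehicle and 14808 to 21551 in fluoxetine libraries. With both tissue scores as covariates the difference was −0.49 (limma, adjusted p = 0.0502). Without the 16 libraries highest in olfactory bulb markers it was −0.65 ± 0.29 (log2 ± SE, adjusted p = 0.213), against −0.63 with all libraries. That fit lacks Het vehicle male replicates 1, 2 and 4 and Het fluoxetine male replicates 2 and 5, so fewer libraries enter it. Without Het fluoxetine male replicate 3 alone the difference was −0.48 (adjusted p = 0.102). None of these 3 values passes the threshold. In WT mice the median olfactory bulb score was 0.061 with vehicle and −0.763 with fluoxetine, and Tubb2b was not called. The part of olfactory bulb tissue in the Tubb2b difference was not tested. Over both sexes the call in Het mice was lost without any single one of 12 of the 20 libraries, with adjusted p from 0.0518 to 0.114. These are Het fluoxetine female replicates 3, 4 and 5, Het fluoxetine male replicates 3 and 4, Het vehicle female replicates 3, 4 and 5, and Het vehicle male replicates 1, 2, 3 and 4.

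**Figure D4:**
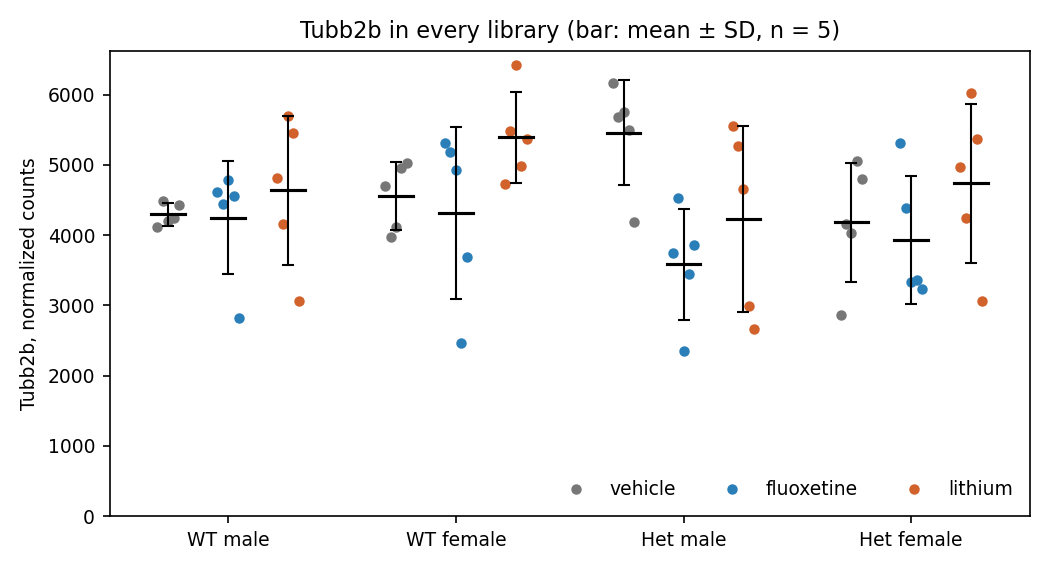
Tubb2b in normalized counts (vertical axis, from 0) in each of the 60 libraries, by genotype, sex and treatment; points are libraries and black bars are means ± SD (n = 5). Het vehicle males lie from 4191 to 6167 and Het fluoxetine males from 2350 to 4524.

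The other beta genes had small fluoxetine differences. In Het mice over both sexes they were −0.10 ± 0.05 for Tubb5 (adjusted p = 0.0790), −0.11 ± 0.05 for Tubb4b (0.106 as adjusted p) and −0.10 ± 0.05 for Tubb3 (0.112 as adjusted p). None of the 3 was called with all libraries. Without Het fluoxetine female replicate 1 all 3 were (adjusted p = 0.0325 for Tubb5, 0.0376 for Tubb4b and 0.0282 for Tubb3), and Tubb5 was also called without Het fluoxetine male replicate 1 (adjusted p = 0.0217) or 2 (adjusted p = 0.0443). Quantile normalization called 6 of the 9 genes lower in Het mice over both sexes and rescaling to the same total called 4, against 1 with the deposited scaling. With the deposited scaling 32.9% of all genes were called there. The shares of all genes under the other 2 settings are not given here, so nothing is read from these counts. Tubb4a was at 0.07 ± 0.06 and Tubb2a at −0.06 ± 0.05. Among alpha genes Tuba1a was at −0.05 ± 0.05 and Tuba1b at −0.05 ± 0.04, and Tubg1 was at 0.01 ± 0.04. In Het males Tuba1a was called without Het vehicle male replicate 5 (−0.20, adjusted p = 0.0452). In WT mice the 9 differences over both sexes ran from −0.08 (Tubb2b) to 0.05 (Tubb5).

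Tuba4a was not tested here, since its vehicle libraries entered its choice. In WT fluoxetine males it stood at 13172, 13567, 12256, 13767 and 14049 normalized counts and in WT fluoxetine females at 14301, 13558, 12714, 14422 and 12393. Het fluoxetine males had 17514, 14207, 13734, 14760.0 and 10945, the widest range of any group. Het fluoxetine females had 13028, 12346, 12465, 12436 and 11245, all below the 5 vehicle females of that genotype, which held for 4.02% of all genes. The log2 differences from vehicle were 0.01 ± 0.08, 0.14 ± 0.08, 0.18 ± 0.08 and −0.15 ± 0.08 in that order. The fluoxetine difference did not differ between genotypes past the threshold for any of the 9 other genes (1.7% of all genes did; smallest adjusted p = 0.149, Tubb5, 1 of 9 at an unadjusted p under 0.05).

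No tubulin gene was called between genotypes. Between Het and WT mice 0 of the 9 genes were called under vehicle in males, females or both (limma, adjusted p from 0.661 to 0.996, 0 at an unadjusted p under 0.05), beside 0.0168%, 0.0225% and 0.0562% of all genes. Under vehicle their differences over both sexes ran from −0.03 to 0.10. Under fluoxetine all 10 could be tested and 0 were called (1.18% of all genes in males, 0.0393% in females, 7.33% over both). The smallest adjusted p over both sexes was 0.0851, for Tubb5 at −0.12 ± 0.05, and 1 of 10 had an unadjusted p under 0.05. Tubb5 was called there without any single one of 3 libraries, Het fluoxetine female replicate 1 (−0.14, adjusted p = 0.0399), Het fluoxetine male replicate 1 (−0.15, adjusted p = 0.0226) or WT fluoxetine female replicate 4 (−0.14, adjusted p = 0.0484). Under lithium 0 of 9 were called (0.00562%, 0.0168% and 0.0393% of all genes), with 4 of 9 at an unadjusted p under 0.05 over both sexes and a smallest adjusted p of 0.712.

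Males and females were also compared. Between males and females, over all treatments, 0 of the 9 genes were called (0.14% of all genes; smallest adjusted p = 0.9999, 0 at an unadjusted p under 0.05). In the fluoxetine libraries, where Tuba4a can be tested too, 0 of 10 were (0.0842% of all genes), and Tuba4a differed by 0.09 ± 0.06. Differences over all treatments ran from −0.04 for Tubb2b to 0.07 for Tubb4a.

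The 10 genes varied together from library to library. Over 45 pairs the median Pearson correlation of log2 values in the 60 libraries was 0.74, with 42 pairs above 0, and around the 12 group means the median was 0.55. These are descriptions: genes of a library share its tissue, depth and size factor. The closest pair was Tuba1b and Tubb4b (r = 0.96, 0.93 around group means), an alpha and a beta gene with no 31-base word in common. Tubb4b and Tubb5 (0.93), Tubb3 and Tubb5 (0.93), Tuba1b and Tubb5 (0.93) and Tubb3 and Tubb4b (0.92) followed. Tubb2b was below 0 with Tubg1 (−0.11), Tubb4a (−0.10) and Tuba4a (−0.07).

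Compared with 13696 genes whose mean was at least 50 normalized counts, the gene most like Tuba1a, Tuba1b, Tubb2a, Tubb3, Tubb4b and Tubb5 was another of the 10 in each case, and that most like Tubg1 was Tuba4a (r = 0.78). Tuba4a was most like Slc27a4, a fatty acid transport protein (0.89), then Tubb4b (0.87), Tuba1b (0.87), Tmem151a (0.83) and Slc2a6, a sugar transporter (0.83). Tubb4a was most like Slc25a22, a mitochondrial glutamate carrier (0.85), and Tmem151a (0.84). Tubb2b was most like Rlbp1, a retinaldehyde binding protein (0.87), and Rasa4, a regulator of Ras (0.87).

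**Figure D5:**
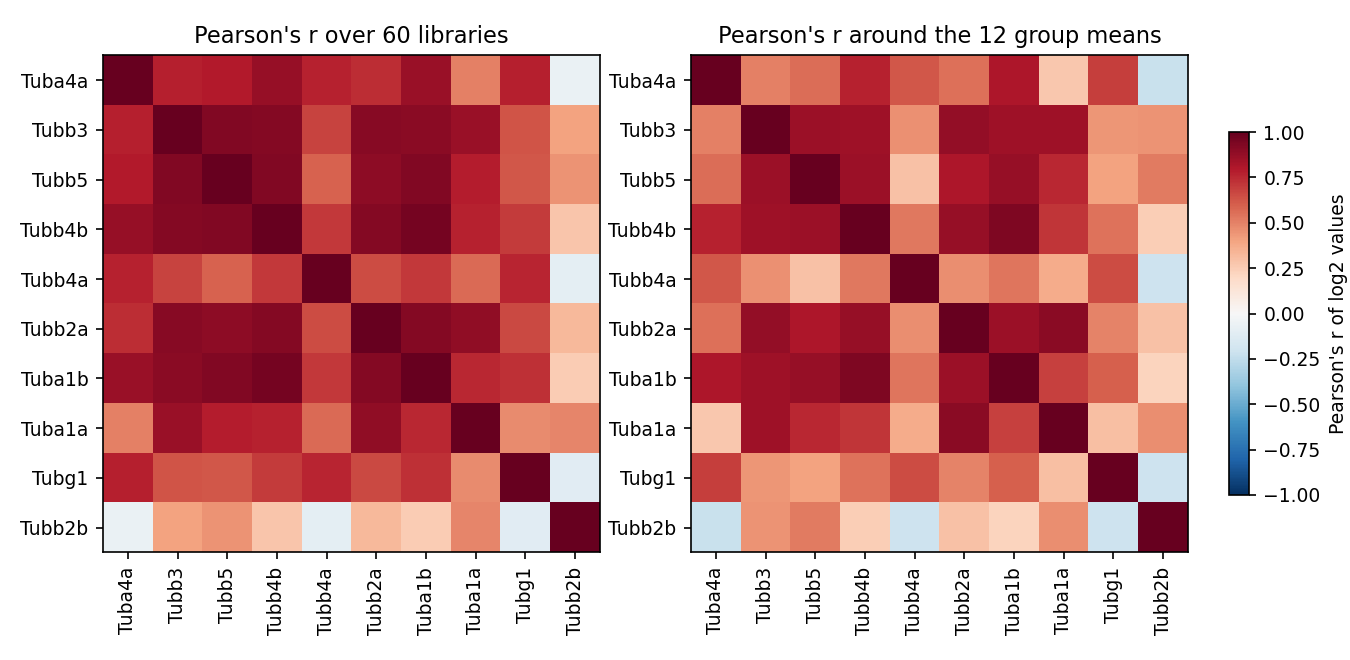
Pearson's r between log2 values of each pair of the 10 genes, over the 60 libraries (left) and around the 12 group means (right), on a color scale from −1 to 1. Median r is 0.74 on the left and 0.55 on the right; the Tubb2b row is the palest in both.

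Of 10 further tubulin genes looked for, 6 were used, with means from 64.3 to 1344 normalized counts. Over both sexes none of the 6 was called with lithium in WT or Het mice (2.97% and 9.14% of all genes; limma), with 2 of 6 at an unadjusted p under 0.05 in each. Tuba8, an alpha tubulin that also holds the TTC5 start, was at 0.53 ± 0.18 in WT (adjusted p = 0.0933) and 0.52 ± 0.18 in Het mice (adjusted p = 0.0573), at a mean of 291 normalized counts. Ing1, with that start but no tubulin, was at −0.0036 and −0.04. Gm49450, a predicted gene with an alpha-type start, was at −1.90 and −1.36. With fluoxetine Tubb6 fell by 1.2 in Het mice (adjusted p = 0.00261; mean of 71.1), Tubg2, the second gamma tubulin, rose by 0.16 ± 0.06 in Het mice (adjusted p = 0.0232), and Tubd1, the delta tubulin of centrioles, rose by 0.27 ± 0.09 in WT mice (adjusted p = 0.0439). Of all genes 32.9% were called with fluoxetine in Het and 8.2% in WT mice. Among the 6, the share called in Het mice is near that of all genes.

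Genes that fold, read out or use tubulin were set beside the 10, as counts over both sexes from the same limma fit. With lithium 2.97% of all genes were called in WT and 9.14% in Het mice, and with fluoxetine 8.2% and 32.9%. Of the 3 genes of the mRNA loop, Ttc5, Scaper and Cnot11, none was called with lithium in either genotype, with log2 differences from −0.0033 to 0.08. With fluoxetine in Het mice 2 rose, Cnot11 by 0.20 ± 0.03 (adjusted p = 4.59e-06) and Ttc5 by 0.12 ± 0.04 (adjusted p = 0.0281). Of 21 folding genes (the CCT chaperonin, prefoldin and tubulin cofactors), lithium called 1 higher and 1 lower in WT mice, Pfdn1 at 0.19 ± 0.05 and Tbcd at −0.16 ± 0.04, and 1 lower in Het mice, Tbce at −0.21 ± 0.06. Fluoxetine in Het mice called 7 higher and 2 lower, led by the chaperonin subunits Cct2 (0.24 ± 0.03, adjusted p = 1.49e-07), Cct8 (0.17 ± 0.03) and Tcp1 (0.17 ± 0.03), where 32.9% of all genes were called. The median of the 21 was 0.09 there, beside 0.0054 over all genes.

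Among 24 microtubule-associated proteins and stathmins, lithium called Stmn3, a stathmin that binds free tubulin, higher in both WT (0.14 ± 0.04, adjusted p = 0.0454) and Het mice (0.15 ± 0.04, adjusted p = 0.0125), and Map7d1 in Het mice (0.14 ± 0.04). No other of the 24 was called with lithium, where 2.97% of all genes were called in WT and 9.14% in Het mice. With fluoxetine Mtcl1, a microtubule crosslinking factor, fell by 0.31 in WT (adjusted p = 1.12e-06) and by 0.42 in Het mice (adjusted p = 6.05e-10). Het mice had 3 of the 24 higher, Map7d2 (0.21 ± 0.04) and Map9 (0.17 ± 0.04) among them. With fluoxetine 32.9% of all genes were called in either direction in Het mice. The number of the 24 called lower is not given here, so nothing is read from this count.

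Of 22 motor genes, lithium called 2 higher in Het mice (5.3% of all genes were called higher), Dctn1, the large dynactin subunit (0.13 ± 0.04), and Kif3c, a kinesin (0.14 ± 0.04), and none in WT mice (1.9% of all genes called higher), where 3 had an unadjusted p under 0.05. These 2 of 22 are near the 9.14% of all genes called in either direction in Het mice. The kinesin Kif21b fell by 0.25 in WT and by 0.33 in Het mice with fluoxetine (adjusted p = 2.36e-05 and 2.74e-08). Of 18 tubulin modifying enzymes, lithium called 2 in Het mice, both lower, near the 9.14% of all genes called there, and none in WT mice (2.97% of all genes; 1 at an unadjusted p under 0.05), and these were the deglutamylase genes Agbl5 and Agbl4 (−0.27 ± 0.08 and −0.26 ± 0.08). Vash1, which removes the tyrosine from alpha tubulin, fell by 0.37 in WT and by 0.43 in Het mice with fluoxetine. Of 17 genes of plus ends and severing, lithium called 1, Ckap5, a microtubule polymerase, which was lower in both genotypes (−0.09 ± 0.02 and −0.08 ± 0.02). Of 17 genes of the gamma-tubulin complex, lithium called 1, Tubgcp6, which was higher in Het mice (0.14 ± 0.04). The medians of these lists with lithium lay between −0.05 and 0.06, beside 0.16 in WT and 0.24 in Het mice for the 10 tubulin genes. The 10 were chosen after Tuba4a was seen higher with lithium, so nothing is read from that gap.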

How the data were processed

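RNA of mouse prefrontal cortex was sequenced with a strand-specific mRNA kit, per the labels' protocols. Tools in the submitters' processing notes are R 3.6.0, Salmon 0.11.2 and DESeq2 1.19.11, with the GRCm38 build. The annotation is not given in the sources used here. The values the authors deposited are a normalized signal per gene: each of the 60 columns steps in whole multiples, and 100% of values came out whole at a tolerance of 0.001, so each is a whole read number, which may be a rounded estimate, over a size factor of its library. Recovered reads ran from 24.05 to 31.65 M per library. GENCODE M21 named 18077 of 18088 genes.

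Values were taken to log2(value + 1), and the 17807 genes that reached 10 in 5 or more libraries were tested. In R 4.3.3, limma 3.58.1 (trend) fitted 12 group means over 60 libraries (48 residual degrees of freedom). Every comparison is a contrast of these means, two-sided, with Benjamini-Hochberg adjustment over all genes and a threshold of 0.05. The design had also named an edgeR test for raw counts; as the values are normalized, edgeR 4.0.16 and DESeq2 1.42.0 on the recovered reads were alternatives. The fit was tested on simulated data first. Replicates of a group differed by more than sampling noise in 120 of 120 pairs. Levels per kb used the mean length of annotated coding transcripts. The members and lists were chosen with earlier results of these data known. Named genes were the members, the genes most like each, and up to 3 genes of each list with the smallest p. The result of a marker gene is not reported here. Python 3.11.15 made the descriptions.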

Additional observations from a re-analysis of the deposited data

Results flagged for a closer look

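Among 120 sets of 5 libraries (10 genes in 12 groups), 4 held a library far from the other 4, and chance gives about 1 in 20. Tuba4a in Het lithium male replicate 2 stood at 15573 normalized counts, below the other 4 at 18294 to 19088. Het lithium female replicate 4 was low in Tuba1b (16960.0 against 19390.2 to 20283) and in Tubb4b (8756 against 10430.1 to 11021). Tubb2b in WT fluoxetine male replicate 5 stood at 2820 against 4449.5 to 4789 in the other 4.

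Tuba4a moved in opposite directions with fluoxetine in females of the 2 genotypes: the mean was 9.94% above vehicle in WT females, with 5 of 5 libraries above the vehicle mean, and −9.91% from vehicle in Het females, with 5 of 5 below it. The difference between them was not tested.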

How the results depend on the processing

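Of 1460 lithium differences of single genes under the alternatives, 1456 moved by less than the spread between libraries and 4 by more. Tuba4a in Het males was among the 4, as low as 0.32 against 0.53 in the main fit. Its spread within groups was 0.13 on the log2 scale. Het vehicle male replicates 1, 2 and 4, with the lowest Tuba4a of their group, are among the 16 libraries highest in olfactory bulb markers. The median lithium difference in Het males was 0.087 without the 16 libraries highest in olfactory bulb markers (chosen after seeing the data) and 0.20 with all. Leaving out 1 library moved the medians from 0.08 to 0.15 in WT males, 0.17 to 0.21 in WT females, 0.14 to 0.17 in WT mice, 0.17 to 0.25 in Het males, 0.23 to 0.31 in Het females, 0.22 to 0.26 in Het mice, and 0.05 to 0.09 for the genotype difference.

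For fluoxetine in Het males, the number of genes called (1) became 6 under quantile normalization, 3 after rescaling to the same total, 0 with tissue scores as covariates and 0 without the 16 libraries; leaving out 1 library gave 0 to 2. Over both sexes it became 6, 4 and, without the 16 libraries, 0, and leaving out 1 gave 0 to 4. With the deposited scaling 22.7% of all genes were called in Het males and 32.9% over both sexes. The shares of all genes under the alternatives are not given here. The fit without the 16 libraries holds fewer libraries. The Het against WT count under fluoxetine over both sexes was 0 to 1 without 1 library. The cause was not tested. Leaving out 1 library gave 0 in each of the other counts. Tuba4a made up 26.6% of the alpha level, 10.9% by merged exons and 13.5% by the longest transcript (chosen after seeing the data), since a longer length lowers a level per kb.

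The replicate numbers did not pair the samples: same-numbered libraries had a mean correlation of 0.0025 around their group means, and 18 of 60 libraries correlated best with their own number. The fit with a replicate block gave 1 called gene in Het males with fluoxetine and changed none of 25 comparisons. The lowest value of the 10 genes in any library was 888 normalized counts, of Tubg1.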
